A study of Mus musculus with 24 samples.

Results

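Epithelial fluid transport was described through 10 genes of the mouse intestine, Best2, Cftr, Slc12a2, Slc4a4, Slc26a3, Slc9a3, Car1, Car4, Aqp4 and Aqp8. The genes were taken as a named list, by matching the Ensembl gene identifiers of the count tables to GRCm38 symbols, and all 10 were found among 45513 genes. RNA was counted in 24 libraries of sorted cells that were positive for the epithelial surface protein EpCAM and for a tdTomato reporter (tdTom+), in 4 groups of 6 libraries, the WT and 9S/T-A genotypes each in small intestine (SI) and in colon. All animals were C57BL/6 mice of 8 to 16 weeks, male or female, homozygous for an Atoh1 allele with CreERT2 placed behind the coding sequence and heterozygous for the Rosa26 tdTom reporter, and all had a single 3 mg injection of tamoxifen. The WT allele (Atoh1(WT)CreERT2) kept the normal Atoh1 sequence, and the 9S/T-A allele (Atoh1(9S/T-A)CreERT2) had 9 serines or threonines that precede a proline changed to alanine. Each group had 3 female and 3 male libraries, numbered 2 to 7 in every group, from cells sorted on the day following tamoxifen. Numbers 2, 5 and 7 were female and 3, 4 and 6 male in all 4 groups. The reporter marks cells in which Atoh1, the bHLH factor that specifies secretory cells, was being expressed when tamoxifen was given, and the SI samples came from the proximal part only, with the villus-rich fraction discarded.

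The intestine moves water by moving salt. In secretion, chloride enters the cell from the blood side with sodium and potassium and leaves through apical anion channels, and bicarbonate follows a similar route, while in absorption apical exchangers take up sodium and chloride in return for protons and bicarbonate. Carbonic anhydrases interconvert carbon dioxide and bicarbonate and so supply both ions that the exchangers use, and aquaporins let water follow. Goblet cells, which are among the cells sorted here, need bicarbonate at their surface for mucin to unfold, whereas apical sodium and chloride absorption is best known in absorptive enterocytes and colonocytes.

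Each library held between 36.0 M and 65.8 M counted reads (M for the prefix mega). Levels are given as counts per M after TMM scaling over the 24 libraries (CPM). The TMM factors ran from 0.69 to 0.871 in SI, so CPM are not shares of all reads. The sorted cells carried goblet markers, with 8 summed markers between 315000 and 507900 CPM in SI and between 35970 and 82290 CPM in colon, and Muc2 at 10290 CPM or more in every library. In each genotype 6 of the 8 were lower in colon and 0 higher. Most of the gap lay in Fcgbp (means of 151000 CPM in WT SI and 9950 in WT colon) and Zg16 (104000 and 6010). Agr2 (3370 and 3730) and Spdef (338 and 333) were close between the tissues. The 8 markers of Paneth cells, which belong to SI, summed to between 48680 and 101900 CPM there and to 1501 CPM or less in colon. Absorptive cell RNA was present as well, since 10 small intestinal absorptive markers summed to between 2433 and 8275 CPM in SI and to between 183.1 and 272.1 CPM in colon. The 8 colonic absorptive markers were mixed, with 4 higher and 2 lower in colon in each genotype. Their sum, 1720 to 3331 CPM in colon and 6976 to 11250 CPM in SI, was carried by Lypd8 (means of 6580 CPM in WT SI and 2030 in WT colon) and Krt20 (1260 and 60.3), while Cyp2c55 (3.07 and 142.0) and Slc37a2 (0.455 and 23.3) went the other way. The 6 stromal markers summed to at most 0.807 CPM, with Col3a1 at 0 in all 24 libraries. The 6 leukocyte markers summed to between 1544 and 2851 CPM in SI, of which Lyz2, whose near-identical neighbour Lyz1 is a Paneth cell gene, had a mean of 2320 CPM in WT SI, while Ptprc had 5.37 CPM. The mean level of Atoh1 itself was 92.3 ± 15.5 CPM (SD, n = 6) for WT against 75.0 ± 11.04 for 9S/T-A in SI, and 102.9 ± 15.7 against 85.9 ± 13.7 in colon, and neither genotype difference passed the correction (edgeR adjusted p = 0.23 and 0.558).

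Upstream sequence was available from RefSeq (GRCm38.p6) for 6 of the 10 genes, and 3 windows are shown because their genes had the 3 different tissue patterns met below, higher in colon (Aqp8), not called on the TMM scale without the block (Slc26a3) and higher in SI (Slc9a3). Each window is the 250 bases before a start annotated by RefSeq, at chr7:123462044-123462293 (plus strand) for Aqp8, chr12:31437969-31438218 (plus strand) for Slc26a3 and chr13:74121163-74121412 (plus strand) for Slc9a3, written 5′ to 3′. The RefSeq start of Slc26a3 differs from that of the counted gene model, so its window lies inside the counted span given below. Capitals mark each CANNTG, the E-box bound by bHLH factors, and each TTTAT or ATAAA, the core bound by the intestinal CDX factors, searched on both strands.
Aqp8: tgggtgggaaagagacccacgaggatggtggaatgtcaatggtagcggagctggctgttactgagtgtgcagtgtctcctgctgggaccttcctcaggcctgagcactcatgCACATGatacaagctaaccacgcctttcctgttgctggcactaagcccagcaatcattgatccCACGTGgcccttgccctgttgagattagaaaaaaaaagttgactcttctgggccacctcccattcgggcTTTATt
Slc26a3: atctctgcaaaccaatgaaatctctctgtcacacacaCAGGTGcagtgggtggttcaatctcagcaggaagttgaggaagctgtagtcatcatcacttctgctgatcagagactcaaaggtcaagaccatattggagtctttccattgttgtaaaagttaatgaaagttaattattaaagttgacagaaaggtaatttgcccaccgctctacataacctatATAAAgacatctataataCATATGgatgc
Slc9a3: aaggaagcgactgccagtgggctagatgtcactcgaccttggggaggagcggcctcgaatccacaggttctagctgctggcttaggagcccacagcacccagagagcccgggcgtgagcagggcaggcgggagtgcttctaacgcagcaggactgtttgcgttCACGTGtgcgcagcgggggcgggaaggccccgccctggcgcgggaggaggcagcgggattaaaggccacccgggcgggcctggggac
Counted from the start, Aqp8 had E-boxes at -138 and -75 and a CDX core at -6, Slc26a3 had E-boxes at -213 and -11 and a CDX core at -29, and Slc9a3 had 1 E-box at -87. Such letters are common, since 66.2% of the 32817 windows of this length held an E-box and 37.3% held a CDX core, so a match describes the sequence and no more. The windows differed in base composition, with 38.8% G and C in Slc26a3, 52.4% in Aqp8 and 67.6% in Slc9a3, against a median of 52.4% over all windows.

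**Figure D1:**
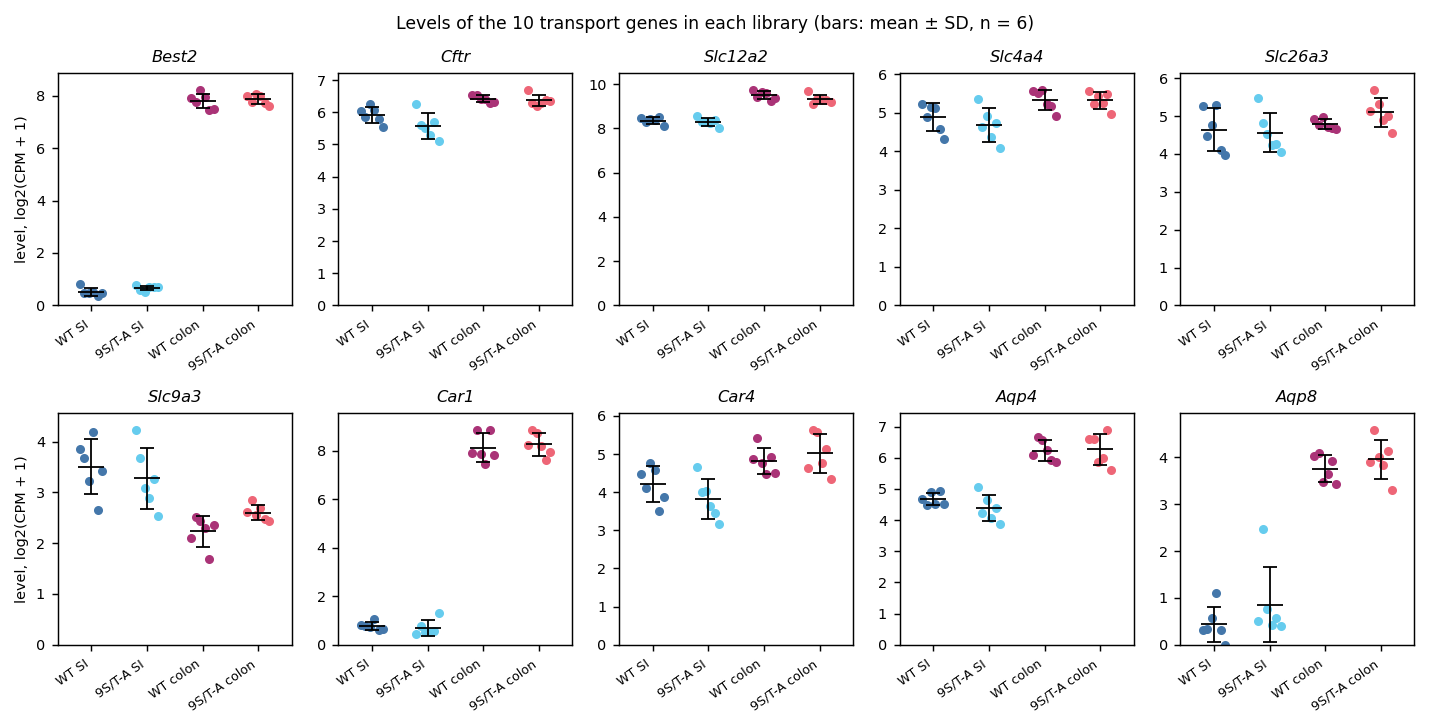
Levels of the 10 genes on a log2(CPM + 1) scale, 1 point per library in the 4 groups, with the mean and SD of 6 libraries as bars. Best2, Car1, Aqp8, Slc12a2 and Aqp4 separate SI from colon without overlap in both genotypes, while WT and 9S/T-A libraries of 1 tissue overlap in every panel.

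Most of these genes differed between the tissues. In WT cells 8 of the 10 genes rose from SI to colon, where 33.1% of the 16979 genes tested were higher in colon, and 1 fell, where 30.4% of all genes were lower. In 9S/T-A cells the counts were again 8 and 1, beside 32.9% and 28.0% of 16938 genes. The median log2 fold change of the 10 genes was 0.84 in WT and 1.11 in 9S/T-A, against 0.026 and 0.042 over all genes tested. These fits left the tissues unpaired. With the library number as a block, Slc26a3 in 9S/T-A was called as well (edgeR adjusted p = 0.0062), and no other call of the 10 genes changed. Over all genes the block called 11716 in place of 10794 in WT, and 11634 in place of 10319 in 9S/T-A. Tissue differences depended on the scaling: with plain library totals the median gene was 0.74 (WT) and 0.85 (9S/T-A) higher in colon on the log2 scale, and 12241 (WT) and 12546 (9S/T-A) genes were called higher against 1903 and 1653 lower, in place of 5625 and 5576 higher against 5169 and 4743 lower. All tissue changes below are relative to the TMM scale, and those of the 10 genes whose direction or call turned on it are named. In sorted bulk samples, fewer cells of a type and less RNA per cell cannot be told apart.

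Among the genes of secretion, Best2 was the most tissue-bound. It encodes bestrophin 2, a basolateral anion channel known from colonic goblet cells (ENSMUSG00000052819, chromosome 8, 85007202 to 85014408). Best2 ranged from 0.285 through a median of 0.386 to 0.769 CPM in WT SI and from 0.441 through 0.622 to 0.708 CPM in 9S/T-A SI. In WT colon it ranged from 175.4 through 229.0 to 292.3 CPM, and in 9S/T-A colon from 194.8 through 234.0 to 268.3 CPM. The 12 SI libraries held 12 to 32 reads each and the 12 colon libraries 10674 to 20695, so the tissues were far from overlapping. The log2 fold change was 8.95 in WT (SE 0.213, adjusted p = 4.63e-14) and 8.59 in 9S/T-A (SE 0.144, adjusted p = 2.24e-15). The WT SI mean was 0.196% of the WT colon mean, the lowest such share among the 1440 genes with at least 100 CPM in WT colon. That cutoff keeps only genes that are high in colon, so the rank is a description. In 9S/T-A the share was 0.253% for Best2 and 0.204% for Car1.

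Slc12a2, the basolateral sodium, potassium and chloride cotransporter that loads cells with chloride (ENSMUSG00000024597, chromosome 18, 57878678 to 57946821), was abundant in both tissues and higher in colon. It ranged from 273.2 through 334.5 to 359.7 CPM in WT SI and from 256.3 through 309.3 to 378.7 CPM in 9S/T-A SI. In colon the values ran from 601.4 through 728.8 to 839.7 CPM in WT and from 552.3 through 628.5 to 817.5 CPM in 9S/T-A. Every colon library was above every SI library, with log2 fold changes of 1.11 (SE 0.101, adjusted p = 1.28e-07) and 1.003 (SE 0.114, adjusted p = 2.06e-06).

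Cftr, the cyclic AMP-regulated apical chloride and bicarbonate channel mutated in cystic fibrosis (ENSMUSG00000041301, chromosome 6, 18170687 to 18322768), differed less. It had 45.7 to 75.3 CPM in WT SI (median 60.9), 33.3 to 75.1 in 9S/T-A SI (median 46.5), 77.6 to 92.3 in WT colon (median 83.9) and 72.0 to 101.3 in 9S/T-A colon (median 79.0). The WT tissues did not overlap, and the 9S/T-A tissues overlapped through the SI library of number 2. On the log2 scale colon exceeded SI by 0.45 in WT (SE 0.102, adjusted p = 0.00114) and 0.74 in 9S/T-A (SE 0.159, adjusted p = 8.8e-04).

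Slc4a4, the sodium bicarbonate cotransporter that brings bicarbonate into the cell at its base (ENSMUSG00000060961, chromosome 5, 88886818 to 89239653), overlapped between tissues. Its range was 19.1 to 36.6 CPM in WT SI (median 31.2), 15.9 to 40.01 in 9S/T-A SI (median 24.8), 28.9 to 46.7 in WT colon (median 40.5) and 30.1 to 46.2 in 9S/T-A colon (median 39.3). Colon was higher than SI within all 6 numbers in each genotype. The difference on the log2 scale was 0.41 in WT (SE 0.158, adjusted p = 0.0338) and 0.58 in 9S/T-A (SE 0.18, adjusted p = 0.0108). Leaving out 1 library from this unpaired fit ended the WT call in 4 of 12 cases (WT colon 2, WT colon 3, WT colon 4 and WT SI 6), with adjusted p from 0.0607 to 0.075. With the library number as a block, the difference was 0.42 in WT (SE 0.077, edgeR adjusted p = 3.45e-04). In 9S/T-A it was then 0.63 (SE 0.090, adjusted p = 8.48e-05).

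**Figure D2:**
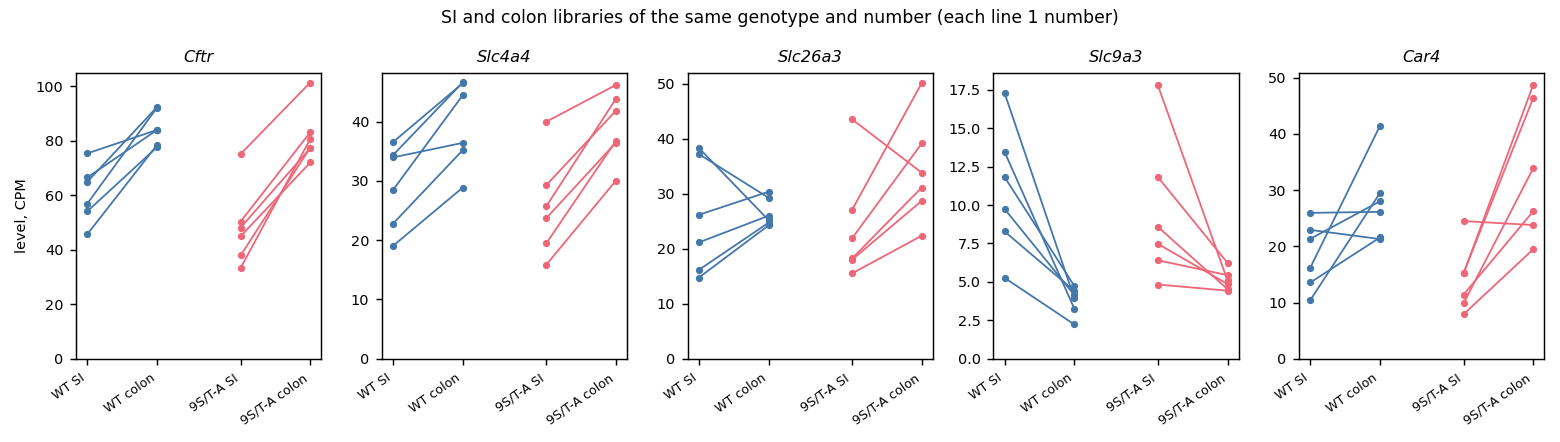
Levels in CPM of 5 genes whose SI and colon libraries overlapped in at least 1 genotype, each line joining the SI and colon library of the same genotype and number. Cftr and Slc4a4 rise in all 12 lines and Slc9a3 falls in all 12, while Slc26a3 rises in 4 of 6 WT and 5 of 6 9S/T-A lines.

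The apical absorption genes come next. Slc9a3 encodes NHE3, the apical exchanger that takes up sodium for protons (ENSMUSG00000036123, chromosome 13, 74121515 to 74166064), and it was the gene of the list that was lower in colon. It ranged from 5.26 through 10.8 to 17.3 CPM in WT SI, from 4.83 through 8.03 to 17.8 in 9S/T-A SI, from 2.24 through 4.05 to 4.74 in WT colon and from 4.43 through 4.98 to 6.24 in 9S/T-A colon. The WT tissues did not overlap, whereas 9S/T-A SI and colon did. Its log2 fold change was -1.56 in WT (SE 0.246, adjusted p = 4.55e-05) and -0.92 in 9S/T-A (SE 0.248, adjusted p = 0.00474). With plain library totals it was -0.84 in WT (adjusted p = 0.00317) and -0.14 in 9S/T-A (adjusted p = 0.631), so the 9S/T-A call rests on the scaling. All 10 small intestinal absorptive markers were lower in colon in both genotypes, and their part in the difference was not tested. The gene model counted for Slc9a3 held 2490 bases, against 5504 exonic bases in GENCODE M21, so its level per length is set by that shorter model.

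Slc26a3, or DRA, exchanges chloride for bicarbonate at the apical surface (ENSMUSG00000001225, chromosome 12, 31390871 to 31473917). It ranged from 14.8 through 23.7 to 38.3 CPM in WT SI and from 15.5 through 20.1 to 43.6 in 9S/T-A SI, and from 24.3 through 25.6 to 30.4 in WT colon and from 22.4 through 32.5 to 50.2 in 9S/T-A colon. All 4 ranges overlapped, and the spread was widest in SI, where the SD was 39.9% of the mean in WT and 43.1% in 9S/T-A, against 9.6% in WT colon. The tissue difference was 0.02 on the log2 scale in WT (95% interval -0.41 to 0.46, adjusted p = 0.929) and 0.48 in 9S/T-A (-0.022 to 0.99, adjusted p = 0.0902). With the library number as a block, which the check of pairing allows for tissue, the 9S/T-A difference was 0.53 with adjusted p = 0.0062 and Slc26a3 was then called as well. Without 9S/T-A SI replicate 2 or without 9S/T-A colon replicate 7 the adjusted p was 0.00307 or 0.0404, and with plain library totals Slc26a3 was called higher in colon in WT (0.75, adjusted p = 0.00177) and in 9S/T-A (1.25, adjusted p = 2.99e-04).

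**Figure D3:**
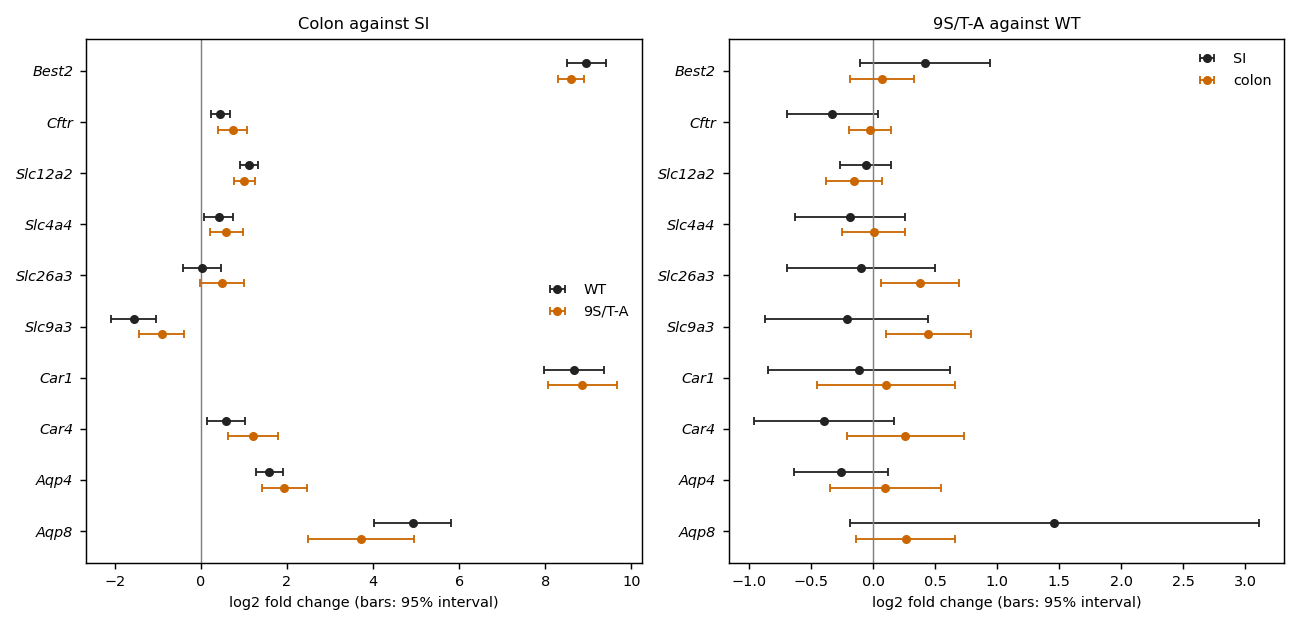
Log2 fold changes of the 10 genes with 95% intervals from edgeR, colon against SI in each genotype on the left and 9S/T-A against WT in each tissue on the right, on axes of different length. Best2 and Car1 lie above 8 and Slc9a3 below 0 on the left, and on the right the intervals include 0 except those of Slc26a3 and Slc9a3 in colon, which did not pass the correction.

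The carbonic anhydrases split. Car1, a cytosolic enzyme known from colonic epithelium and red cells (ENSMUSG00000027556, chromosome 3, 14766216 to 14808368), had 0.504 to 1.06 CPM in WT SI (median 0.676) and 0.341 to 1.49 in 9S/T-A SI (median 0.458). It had 173.0 to 462.2 CPM in WT colon (median 235.7) and 195.3 to 454.4 in 9S/T-A colon (median 292.2). SI and colon were far apart, with log2 fold changes of 8.67 (SE 0.33, adjusted p = 5.12e-12) and 8.86 (SE 0.372, adjusted p = 2.47e-11), and the SI mean was 0.238% of the colon mean in WT, sixth lowest among the same 1440 genes. Within colon the libraries spread more than for Best2, with an SD of 42.9% of the mean in WT against 19.8%. Gm5843, 36590 bases away, moved with Car1 within groups and had 20.4 ± 7.74 CPM in WT colon. Reads that match more than 1 place entered the counts at their primary alignment, and whether these genes share reads was not tested.

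Car4 encodes the membrane-bound enzyme of the apical surface (ENSMUSG00000000805, chromosome 11, 84957786 to 84966044). It ranged from 10.4 through 18.8 to 26.0 CPM in WT SI, from 7.91 through 13.3 to 24.5 in 9S/T-A SI, from 21.3 through 27.1 to 41.5 in WT colon and from 19.5 through 30.1 to 48.8 in 9S/T-A colon. The tissues overlapped in both genotypes and 5 of 6 numbers were higher in colon in each. The log2 fold change was 0.57 in WT (SE 0.208, adjusted p = 0.0252) and 1.21 in 9S/T-A (SE 0.273, adjusted p = 0.00125). In this unpaired fit, the WT call was lost without WT colon replicate 3 (0.43, adjusted p = 0.0714). With the library number as a block, the WT difference over all libraries was 0.59 (SE 0.189, edgeR adjusted p = 0.0143).

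Of the water channels, Aqp4 (ENSMUSG00000024411, chromosome 18, 15389394 to 15403684), a basolateral channel, had 21.6 to 29.2 CPM in WT SI (median 23.2) and 13.8 to 32.5 in 9S/T-A SI (median 18.7). It had 57.6 to 100.2 CPM in WT colon (median 71.5) and 48.1 to 118.2 in 9S/T-A colon (median 79.4), above SI without overlap. The log2 fold change was 1.59 in WT (SE 0.143, adjusted p = 1.21e-07) and 1.93 in 9S/T-A (SE 0.243, adjusted p = 6.06e-06).

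Aqp8 (ENSMUSG00000030762, chromosome 7, 123462294 to 123468003), known from surface colonocytes, was close to the limit of detection in SI. It ranged from 0 through 0.25 to 1.15 CPM in WT SI, with 1 library at 0 reads, and from 0.314 through 0.454 to 4.51 in 9S/T-A SI. In colon it ranged from 9.82 through 12.8 to 16.0 CPM in WT and from 8.89 through 14.5 to 23.1 in 9S/T-A. The highest SI library, 9S/T-A SI replicate 3 with 195 reads, was still below the lowest colon library. The log2 fold change was 4.91 in WT (SE 0.417, adjusted p = 6.04e-08) and 3.72 in 9S/T-A (SE 0.578, adjusted p = 4.79e-05), and the latter was 5.03 without 9S/T-A SI replicate 3.

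**Figure D4:**
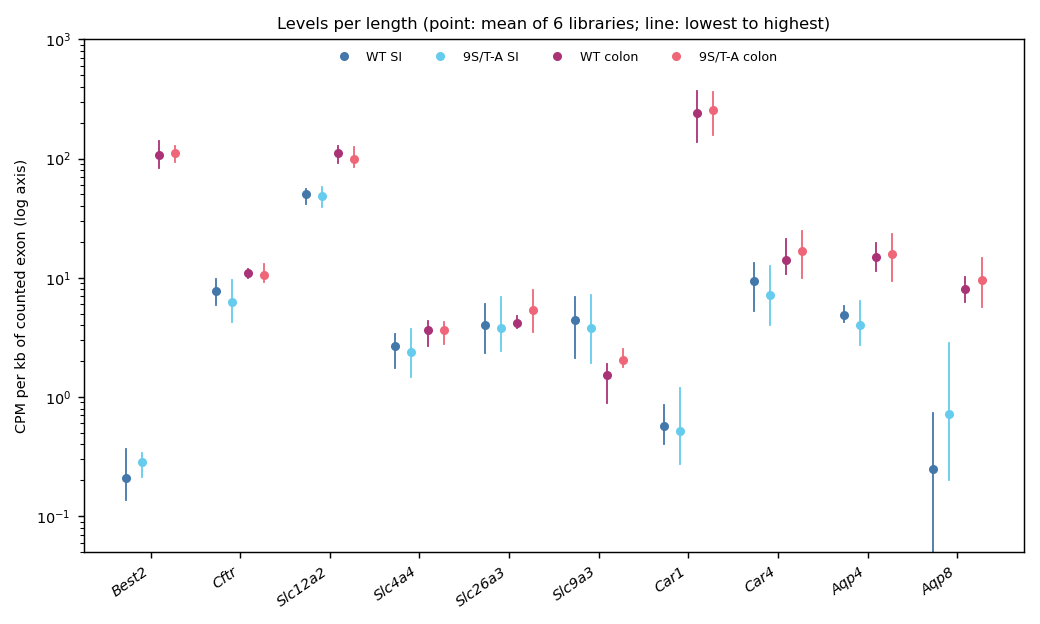
Levels per length in CPM per kb of counted exon on a log axis, the point being the mean of 6 libraries and the line running from the lowest to the highest, with the line of Aqp8 in WT SI reaching 0 and cut at the axis. Slc12a2 leads in SI, and Car1, Best2 and Slc12a2 lead in colon.

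Levels can be compared between genes only per length, and the length used was that of the counted model, which for Slc12a2 held 6520 bases against 10920 exonic bases in GENCODE M21. In CPM per kb of counted exon, Slc12a2 led in SI with 50.3 ± 4.81 in WT and 48.3 ± 6.11 in 9S/T-A (SD, n = 6), which was 59.6% and 62.6% of the summed level of the 10 genes. Car4 and Cftr followed with 9.36 ± 3.03 and 7.80 ± 1.35 in WT SI, which did not differ beyond their spread, and Best2 was last with 0.211 ± 0.0805. In colon Car1 led with 239.2 ± 102.7 in WT and 254.0 ± 80.8 in 9S/T-A, 46.4% and 48.1% of the sum. Slc12a2 and Best2 came next, with 111.2 ± 14.2 and 107.4 ± 21.3 in WT and 98.7 ± 14.2 and 111.4 ± 14.3 in 9S/T-A, so that their order lay within the spread, and Slc9a3 was last with 1.52 ± 0.366 and 2.05 ± 0.269. Within each gene, the WT and 9S/T-A ranges of 1 tissue overlapped in every case. The share of all genes that overlap in this way is not given, so nothing particular to these genes is read from it.

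Genotype changed none of the 10 genes past the test. In SI 0 of 10 were called by edgeR, beside 1.94% of the 16236 genes tested. By edgeR 0 of 10 had an unadjusted p under 0.05, where 2556 of all 16236 genes did. DESeq2 called 0 of 10, beside 779 of 16000 genes. The median log2 fold change of the list was -0.15, against 0.000227 over all genes. Cftr had -0.33 (95% interval -0.70 to 0.035, adjusted p = 0.372) and Car4 had -0.40 (-0.96 to 0.17, adjusted p = 0.503). Without 9S/T-A SI replicate 2 Cftr had -0.50 (edgeR adjusted p = 0.0553), and without 9S/T-A SI replicate 7 it had -0.25 (adjusted p = 0.543). Best2 had 0.42 (-0.11 to 0.94, adjusted p = 0.441) at 0.59 CPM or less on average in both SI groups. Aqp8 had 1.46 (-0.19 to 3.11, adjusted p = 0.382) and 0.15 without 9S/T-A SI replicate 3. The most precise was Slc12a2 with -0.06 (-0.26 to 0.14). In the same comparison 4 of 8 Paneth markers and 1 of 5 tuft markers were lower in 9S/T-A, 1 of 8 enteroendocrine markers was higher and 1 lower, and 0 of 8 goblet and 0 of 10 small intestinal absorptive markers were called. The small intestinal absorptive markers summed to 2433 to 6743 CPM in WT and 4069 to 8275 in 9S/T-A, and the goblet markers to 315000 to 443000 CPM (median 322100) and 320300 to 507900 CPM (median 453500).

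In colon 0 of the 10 genes were called by edgeR, beside 0.318% of the 16997 genes tested, and 0 by DESeq2, beside 238 of 21335 genes. By edgeR 1497 of all 16997 genes had an unadjusted p under 0.05, and so did 2 of the 10. These were the apical exchangers. The WT and 9S/T-A means of Slc9a3 were 3.79 and 5.10 CPM and differed by 0.44 on the log2 scale (95% interval 0.10 to 0.79, adjusted p = 0.394). Slc26a3 averaged 26.7 and 34.2 CPM, which differed by 0.38 (0.065 to 0.69, adjusted p = 0.44), and neither passed the correction. The other 8 genes lay between -0.15 for Slc12a2 and 0.26 for Aqp8, and the median of the 10 was 0.10 against 0.0049 over all genes. Whether a genotype difference depended on tissue was tested directly, and 0 of 10 genes were called by edgeR, beside 0.412% of the 17953 genes tested. By edgeR 0 of 10 had an unadjusted p under 0.05, where 1740 of all 17953 genes did. DESeq2 called 0 of 10, beside 255 of 17679 genes. With the block, 342 genes in place of 74 were called, and still 0 of the 10. The intervals were wide: for Slc9a3 the colon effect exceeded the SI effect by 0.64 (-0.13 to 1.40, adjusted p = 0.648), and for Car4 by 0.64 (-0.12 to 1.40, adjusted p = 0.647).

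The libraries of a group did not scatter independently over the genes. The library 9S/T-A SI replicate 2 was the highest of its group for 8 of the 10 genes and replicate 7 the lowest for 8, and in colon 9S/T-A replicate 7 was the lowest for 7. As deviations of log2(CPM + 1) from the group mean, Cftr and Slc4a4 moved together over the 12 SI libraries (Pearson r = 0.929, Spearman rho = 0.944, and r = 0.865 without the 2 libraries farthest from the median). Slc26a3 and Car4 did so in SI (r = 0.889, rho = 0.888, and 0.826 without 2), with 0.722, 0.566 and 0.414 in colon. In colon Car4 moved with Aqp8 (r = 0.832, rho = 0.818, and 0.682 without 2) and Best2 with Slc12a2 (0.738, 0.797 and 0.639). These are descriptions over 12 libraries that share their totals and scaling.

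The deviations were also set beside summed cell type markers. Over the 12 SI libraries Slc26a3 had r = 0.961 (rho = 0.979, and 0.966 without 2) with the small intestinal absorptive markers, and Slc9a3 had r = 0.81 (rho = 0.79, and 0.787 without 2). Slc9a3 had a higher r with a list of 6 pancreatic and smooth muscle markers (r = 0.872, rho = 0.888, and 0.835 without 2), which summed to only 7.21 to 10.6 CPM in SI. Most of that sum was Cela1 (mean of 5.78 CPM in WT SI, and 152.0 in WT colon), and Prss1 had a mean of 0 CPM in WT SI. Over the 12 colon libraries Slc26a3 had r = 0.895 (rho = 0.965, and 0.876 without 2) with the colonic absorptive markers, and Slc9a3 had 0.315. The colonic absorptive sum was made up mostly of Lypd8 (mean of 2030 CPM in WT colon, and 6580 in WT SI). In SI Aqp4 moved with the 4 stem cell markers (r = 0.876, rho = 0.783, and 0.71 without 2), a sum made up mostly of Olfm4 (mean of 785 CPM in WT SI), and with the 6 cycling markers (r = 0.877, rho = 0.734, and 0.784 without 2). Slc4a4 moved against the 5 tuft markers in both tissues (r = -0.834 in SI and -0.838 in colon, and -0.633 and -0.52 without 2), and with the small intestinal absorptive markers in SI (r = 0.804, and 0.746 without 2). Several other genes moved against the tuft markers in SI, among them Slc26a3 (r = -0.775), Car4 (-0.772), Slc12a2 (-0.74) and Cftr (-0.738). The part of such cells in the levels was not tested.

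**Figure D5:**
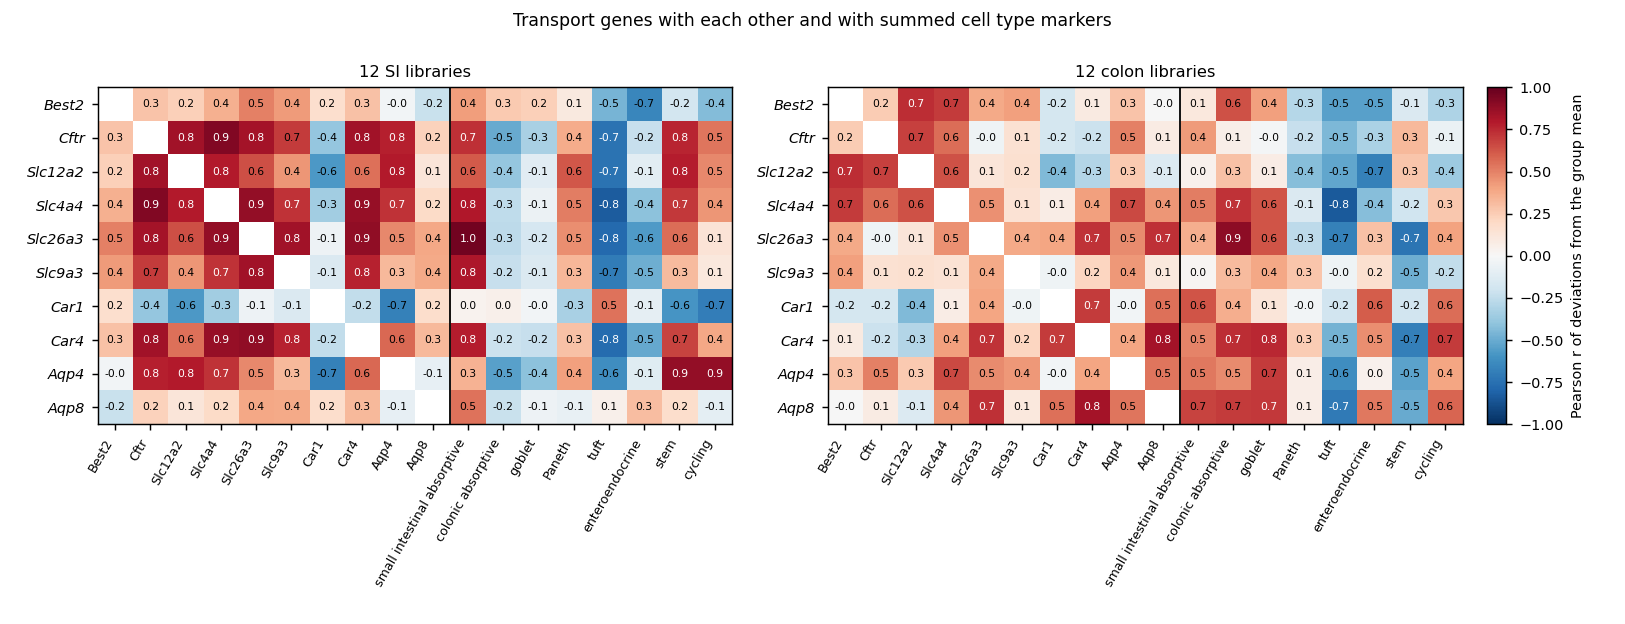
Pearson r of within-group deviations of log2(CPM + 1), the 10 genes in rows against each other and against summed cell type markers (right of the line), over 12 SI libraries on the left and 12 colon libraries on the right. In SI Cftr, Slc4a4, Slc26a3, Slc9a3 and Car4 form a block of positive values that also holds the small intestinal absorptive markers, and Car1 stands outside it.

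Likeness was measured over all 24 libraries against 12634 other genes whose mean log2 CPM was 1 or more, again as deviations from the group means. The closest to Slc26a3 were Sult1b1 (r = 0.944, rho = 0.957), Maob (0.932, 0.95) and Ugt2a3 (0.93, 0.949). For Slc9a3 they were Mep1b (0.855, 0.776), Ceacam20 (0.824, 0.767) and Slc6a19 (0.823, 0.717). For Slc4a4 they included Slc25a15 (0.931, 0.913) and B3glct (0.921, 0.923). For Cftr they were Mpzl2 (0.915, 0.93), Pde3a (0.9, 0.884) and Mgst1 (0.89, 0.763), and Pde3a degrades cyclic AMP. The closest to Car1 was Gm5843 (0.924, 0.914), and the next, Ilk, had 0.744. For Best2 the closest was Snx18 (0.828, 0.797), for Slc12a2 Aldh6a1 (0.909, 0.81), for Car4 Bpnt1 (0.875, 0.87), for Aqp4 Tcaf2 (0.854, 0.873) and for Aqp8 Ces1g (0.865, 0.837).

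The transport machinery around these genes was read from a list of 55 further genes, of which 52 were tested for tissue. In WT 24 were higher and 14 lower in colon, and in 9S/T-A 26 and 15, with medians of 0.27 and 0.31 on the log2 scale, where 33.1% and 30.4% of all genes were higher and lower in WT and 32.9% and 28.0% in 9S/T-A. Among pathway genes with a mean log2 CPM of 1 or more, Scnn1b, Scnn1g and Atp12a rose most. Scnn1b and Scnn1g encode subunits of ENaC, the aldosterone-regulated sodium channel. A further ENaC subunit, Scnn1a, named after its values were seen, was lower in colon on the TMM scale. Its log2 fold change was -0.47 in WT and -0.70 in 9S/T-A (edgeR adjusted p = 3.29e-04 and 7.28e-05). Its difference with plain library totals is not given. On that scale the median gene was 0.74 (WT) and 0.85 (9S/T-A) higher in colon, so the direction of Scnn1a may turn on the scaling. The counts of pathway genes higher and lower are also those of the TMM scale. Scnn1b had 26.1 ± 7.92 CPM in WT colon and 31.1 ± 7.39 in 9S/T-A colon (SD, n = 6), against 1 to 3 and 1 to 6 reads per SI library (adjusted p = 1.11e-12 and 8.31e-13). Scnn1g had 4.62 ± 3.09 and 6.76 ± 3.18 CPM in WT and 9S/T-A colon and at most 2 reads in any SI library (adjusted p = 6.16e-08 and 1.18e-09). Atp12a, the colonic proton and potassium pump, had 28.5 ± 13.3 and 41.3 ± 26.0 CPM in colon and at most 9 reads in any SI library (adjusted p = 1.44e-10 and 6.38e-10).

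Among the same genes, the largest falls were those of Pdzk1, Slc26a6 and Slc9a3r1. Pdzk1, which encodes a scaffold of apical transporters, went from 21.1 ± 11.4 CPM in WT SI to 0.124 ± 0.0315 in WT colon (log2 fold change -7.42, SE 0.387, adjusted p = 1.93e-10). Slc26a6, an apical anion exchanger related to Slc26a3, went from 48.8 ± 22.9 to 2.72 ± 0.411 CPM (-4.19, SE 0.276, adjusted p = 3.06e-09). Slc9a3r1, the NHERF1 scaffold that binds NHE3, went from 314.1 ± 38.7 to 58.3 ± 8.79 CPM (-2.46, SE 0.114, adjusted p = 4.75e-11). These 3 were also the largest falls above that level in 9S/T-A cells (-7.94, -4.48 and -2.51, adjusted p = 3.13e-11, 3.69e-10 and 9.32e-10). Of the other aquaporins, 3 of the 4 tested were lower in colon in each genotype, and below that level Aqp3 (-5.93 in WT and -6.47 in 9S/T-A) and Aqp7 (-3.91 and -4.46), named after their values were seen, fell by more than Slc9a3r1.

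For genotype, 2 of 49 tested pathway genes were called in SI, both higher in 9S/T-A, and 0 of 49 in colon. The shares of all genes called were 1.94% and 0.318%. In SI 12 of the 49 had an unadjusted p under 0.05, as did 2556 of all 16236 genes. In colon 4 of the 49 did, as did 1497 of all 16997 genes. Guca2a, which encodes guanylin, the peptide that drives chloride and bicarbonate secretion through guanylate cyclase C, rose from 625.5 ± 102.9 CPM in WT SI to 1084 ± 174.8 in 9S/T-A SI (log2 fold change 0.79, SE 0.128, adjusted p = 0.00422). Slc9a3r2, the NHERF2 scaffold, rose from 5.82 ± 0.804 to 8.16 ± 1.01 CPM (0.49, SE 0.115, adjusted p = 0.0447). Leaving out 1 library at a time ended the Slc9a3r2 call in 9 of 12 cases and the Guca2a call in 0 of 12. The interaction called 0 of 53 pathway genes by edgeR, beside 0.412% of all genes, with 3 at an unadjusted p under 0.05, as had 1740 of all 17953 genes.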

How the data were processed

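RNA was extracted from sorted EpCAM+ tdTom+ cells of SI and colon and made into stranded mRNA libraries. The authors aligned the reads with TopHat2 2.1.1 to GRCm38.p3 and counted them by strand over the exons of each Ensembl gene with featureCounts (Subread 1.5.2). The deposited counts are not normalized, and per the file headers only primary alignments were counted. Symbols came from GENCODE M21 for 97.96% of identifiers. 60 within-group pairs of libraries were checked for duplication, and 0 were identical (lowest chi-square over its degrees of freedom 25.8).

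The two-sided quasi-likelihood test of edgeR 4.0.16 (R 4.3.3), after filterByExpr and TMM scaling, was applied to the counts for genotype within tissue, tissue within genotype and their interaction, and Benjamini-Hochberg adjusted p under 0.05 over all genes tested was a call. SE and 95% intervals came from the quasi-likelihood F. On simulated data with 200 genes changed 2-fold, the test recovered 78.5% (genotype in SI), 80% (genotype in colon), 77.5% (tissue in WT) and 78% (tissue in 9S/T-A), with 12, 2, 12 and 7 false calls. Levels are CPM scaled over 24 libraries, and likeness used log2(CPM + 1). Reads are not independent molecules, so depth limits counting error only.

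The series' design text counts 6 mice, while 2 genotypes carry 6 library numbers each, and the labels do not state which libraries come from separate animals, so n is a number of libraries and p-values measure the spread between libraries, which may be partly technical. The SI and colon libraries of 1 genotype and number deviated together in all 6 pairs (lowest r = 0.168 in WT and 0.159 in 9S/T-A). The number was therefore taken as pairing tissues, as a check from the data. Same-numbered libraries also share a sex, whose part in these correlations was not tested. The tissue tests are unpaired except where the block is named. The 10 genes, the pathway and marker lists and the tests were chosen with earlier results of these data known. Named were the 10 genes, Atoh1, the 3 largest rises and falls called in the pathway list (mean log2 CPM of 1 or more), and the 3 genes most like a member (the closest alone where the member is described briefly). 1 gene named by this rule is not reported here. The marker genes (Lyz2, Ptprc, Muc2, Fcgbp, Zg16, Agr2, Spdef, Col3a1, Lypd8, Krt20, Cyp2c55, Slc37a2, Olfm4, Cela1 and Prss1) were named after their values were seen. Alternatives were the replicate block, DESeq2 1.42.0, RLE factors, plain totals, no filter, sex as a covariate, adjusted p under 0.1, all 24 libraries in one fit and leaving out each library.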

Additional observations from a re-analysis of the deposited data

Results flagged for a closer look

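Of 40 sets of 6 libraries (10 genes in 4 groups), 4 had a highest library that stood apart from the next by more than Dixon's 95% critical value for the gap over the whole range, and chance gives about 1 in 20 such sets. Best2 had 0.769 CPM in WT SI replicate 2, with a gap of 0.693 of the range. Slc12a2 had 817.5 CPM in 9S/T-A colon replicate 2, with a gap of 0.627. Car1 had 1.49 CPM in 9S/T-A SI replicate 7, with a gap of 0.693, and without that library its tissue difference in 9S/T-A was 9.33 on the log2 scale in place of 8.86. Aqp8 had 4.51 CPM in 9S/T-A SI replicate 3, with a gap of 0.909, and its genotype difference in SI was 1.46 with and 0.15 without that library.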

How the results depend on the processing

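Of 1501 single-gene log2 fold changes under an alternative setting, 1447 kept their direction and their side of the threshold, 17 lost a call (11 of them for Slc9a3r2, 4 for Slc4a4 and 1 each for Car4 and Slc9a3), 9 gained one and 28 changed sign. The number of the 10 genes called stayed at 0 for genotype and interaction in every fit, and for tissue between 7 and 9 in WT and 9 and 10 in 9S/T-A without 1 library. The number of all genes called for genotype in SI, 315, was 477 with the replicate block, 779 with DESeq2, 561 at adjusted p under 0.1, 520 with all 24 libraries in one fit and 188 to 550 without 1 library (188 without WT SI replicate 3, 194 and 195 without 9S/T-A SI replicates 5 and 4, 200 and 205 without WT SI replicates 4 and 6, and 550 without 9S/T-A SI replicate 2). In colon, 54 became 385 with the replicate block, 238 with DESeq2, 90 with no filter, 89 with sex as a covariate, 109 at adjusted p under 0.1, 103 with all 24 libraries and 30 to 72 without 1 library (30 and 31 without WT colon replicates 5 and 2). For the interaction, 74 became 342 with the replicate block, 255 with DESeq2, 136 at adjusted p under 0.1 and 50 to 112 without 1 library (112 without 9S/T-A SI replicate 2). Same-numbered libraries of the 2 genotypes correlated over 0.1 in 4 of 6 pairs in SI and 5 of 6 in colon, and 2 and 4 of 6 libraries correlated best with their own number, so the block is a sensitivity check for genotype. For tissue, the block changed no call of the 10 genes other than Slc26a3 in 9S/T-A. With plain library totals the genotype calls in SI split into 78 higher and 190 lower, in place of 168 and 147, and those of the interaction into 65 and 8, in place of 52 and 22. The differences that changed sign were Slc4a4 for genotype in colon with plain library totals (-0.037) and all 24 libraries (-0.017), and Slc26a3 for tissue in WT with RLE factors (-0.0028). Without 1 library the ranges were, for genotype in SI, -0.57 to 0.033 for Car1 and -0.35 to 0.051 for Slc26a3, for genotype in colon, -0.048 to 0.20 for Aqp4, -0.017 to 0.27 for Car1, -0.088 to 0.014 for Cftr and -0.063 to 0.062 for Slc4a4, for tissue in WT, -0.070 to 0.20 for Slc26a3, and for the interaction, -1.90 to 0.13 for Aqp8 and -0.042 to 0.12 for Atoh1. The cause of these changes was not tested. With plain library totals Atoh1 was also called higher in colon (0.84 in WT and 0.97 in 9S/T-A), and Slc9a3r2 lost its call (0.38, adjusted p = 0.156). In SI, 0 to 195 reads lie behind Aqp8, 12 to 32 behind Best2 and 13 to 76 behind Car1, which limits genotype comparisons of these genes there.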
